A study of Rattus norvegicus with 18 samples.

Results

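The 9 genes described here, Ppp1r2, Amd1, Pink1, Ier3, Arpc5l, Ccnyl1, Tmem179b, Tada2b and Pla2g12a, were chosen by a measured value: their mRNA was less abundant in large polysomes, relative to total RNA, in rat lung shortly after birth than before it. They are 9 of the 11590 genes represented on the arrays after filtering. All 14 probe sets annotated to them were examined, and 12 of these were bright enough to be kept, out of 21675 kept among 31042. The working name of the group was mRNAs leaving large polysomes after birth, but the signals did not bear this name out for every gene. Ier3 was more abundant in the large polysomes after birth. Pink1 and Ccnyl1 were higher in total RNA, and their polysomal signals averaged lower than on fetal day 22 but overlapped with them. The 6 others averaged lower in polysomal RNA and differed less in total RNA. The genes are therefore called below by what chose them, a lower polysomal over total ratio at P1.

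Lungs of Wistar rats were taken on fetal day 19 (FD19), on fetal day 22 (FD22) and on postnatal day 1 (P1), 5 h after birth. At each of the 3 stages, 3 litters gave 3 lysates, and each of the 9 lysates was split into polysomal RNA, taken from the part of a sucrose gradient where an mRNA carries more than 7 ribosomes, and total RNA. The 18 RNAs were hybridised to Affymetrix rat expression arrays. The 6 groups of 3 arrays were thus FD19 polysomal, FD19 total, FD22 polysomal, FD22 total, P1 polysomal and P1 total. No group carried a transgene or drug. Fetuses were delivered by Caesarean section and newborns vaginally, so birth, mode of delivery and age cannot be told apart between P1 and FD22, and whole lung mixes many cell types.

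An mRNA in large polysomes is being read by many ribosomes at the same time, so the polysomal over total ratio is a common measure of how heavily an mRNA is engaged in translation. At birth the lung clears its fluid and begins to breathe air, and the newborn meets a change in oxygen, hormones and nutrition. A ratio can be lower with less mRNA in polysomes or with more mRNA outside them, and the total and polysomal signals show in which of these the arrays differed.

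The start of an mRNA is shown first, because the first bases and any short reading frame before the main one are features known to tune ribosome loading. RefSeq start windows (build GRCr8) were matched for 8 of the 9 genes by symbol. Each line gives 15 bases before and 15 bases from the annotated start, and the capitals mark the first 5 transcribed bases.
Ppp1r2, chr11:82977619-82977648, plus strand: ctggtagtggtttccGCGACagcaggtgcg
Amd1, chr20:45265968-45265997, minus strand: tcacgcacaaccctcGCTTAcacagtatgg
Pink1, chr5:155825936-155825965, minus strand: gcttttcggacgtttGTGGCggtggcagct
Arpc5l, chr3:43169587-43169616, plus strand: ccaagcggagccggtGCGGAgggagccggt
Ccnyl1, chr9:73565469-73565498, plus strand: ctctccaccaggctgGGCCTtcggggcccg
Ccnyl1, another annotated start, chr9:73566104-73566133, plus strand: gagcggacgctccccATGGGgaacacgctg
Tmem179b, chr1:215101217-215101246, minus strand: gggcggggcttgggcGGTTGgcttcctggt
Tada2b, chr14:78504140-78504169, plus strand: cgggcggcgggcgagCGGGGgaagatggcg
Pla2g12a, chr2:221110707-221110736, plus strand: cgttcggcgcagctcAGTGAcggggcgcga
A C followed by 4 bases that are each C or T, the letters that begin a terminal oligopyrimidine mRNA such as those of ribosomal proteins, opened none of these 9 windows on the transcribed strand, and it opened 2.63% of all 33469 start windows. In 6 of the 9 windows, of which Ccnyl1 has 2, the first transcribed base was G. The share with G over all start windows was not counted, so this only describes the letters. Amd1 carried a short frame from an ATG to an in-frame stop just after its start, shown here in capitals.
Amd1, upstream frame, chr20:45265946-45265975, minus strand: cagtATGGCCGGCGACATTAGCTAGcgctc
The frame begins at base 12 of the transcript and spans 21 bases, with 6 codons before the stop. In mammals this upstream frame is known for stalling ribosomes when polyamines are plentiful. The same 21 letters were found in 1 of the 33469 windows on the transcribed strand and in 0 on the other. Some ATG with an in-frame stop within the 50 bases after the start was present in 12.3% of all windows and, of the 8 genes, in Amd1 alone. These are matches of letters in short windows and say nothing of which start the lung used.

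The arrays of FD22 replicate 2 stood apart before any comparison. The liver gene Alb, the serum albumin mRNA, had a signal of 4892 to 5662 on its 2 arrays and 31.6 to 147.0 on the other 16 arrays, and Afp, fetal alpha-fetoprotein, had 1443 to 1462 against 0.9 to 51.2. All 9 lung epithelial markers were kept, with a summed signal of at least 11860 on every array, so lung epithelial RNA was present on each. That sum does not show that other tissue was absent. The 5 heart markers, all kept, summed in polysomal RNA to 829.7 to 4965 at FD22 and 956.3 to 2228 at P1. In total RNA they summed to 889.6 to 3113 at FD22 and 859.5 to 1479 at P1. The part of heart or liver RNA in the results was not tested. Of 7 leukocyte markers, all kept, the summed polysomal signal was 7208 to 8586 at P1 and 5694 to 6601 at FD22. The total signal was 8195 to 8933 at P1 and 6851 to 10340 at FD22. Lyz2 gave the largest part of the polysomal sum (3383 to 6572 at P1, 3088 to 4633 at FD22). Taken singly, every marker but Cd3e overlapped between the P1 and FD22 polysomal arrays, and Cd3e was lower at P1 (14.0 to 22.5 against 24.5 to 38.6). The part of these cells in the results was not tested. In whole tissue, fewer cells of a type and less RNA per cell cannot be told apart. Each array was scaled to the same mean signal, so a polysomal over total ratio is relative to the other mRNAs on the arrays, and 3 arrays a group limit the precision. The arrays numbered 1 also deviated together from their groups across stages, with r between 0.37 and 0.50. Each gene's ratio change is therefore also given without FD22 replicate 2, and the range over the 9 genes without replicate 1 of every stage.

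The change in ratio is the log2 polysomal over total ratio at P1 minus the same at FD22, so a negative value is a lower ratio at P1. It lay between -1.63 and -0.90 for the 9 genes, with a median of -1.32, while the median over all kept probe sets was 0.01 and their 5th and 95th percentiles were -0.55 and 0.51. The ratios at P1 were the reason the genes were chosen, so these values are a description, and the calls given below are no independent test of them. For each of the 9 genes, the 3 lysate ratios at P1 lay under all 6 fetal ratios, which was so for 4.12% of kept probe sets. Without FD22 replicate 2 the changes ran from -1.70 to -0.90 with a median of -1.31, and when replicate 1 of every stage was left out they ran from -2.04 to -0.89 with a median of -1.36.

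**Figure D1:**
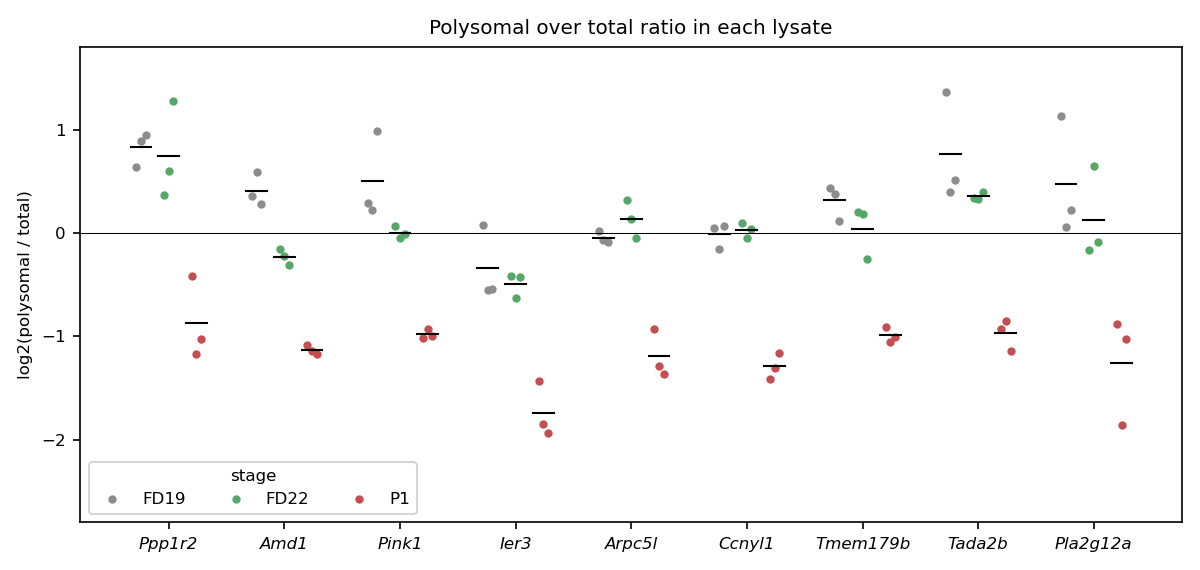
Polysomal over total ratio (log2, y axis) of 9 genes in each lysate of FD19, FD22 and P1, with a line at the mean of 3 lysates. The P1 points sit under every fetal point of the same gene, Ier3 lowest with a mean of -1.74 and Ppp1r2 highest with -0.87.

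In limma's moderated test across all kept probe sets, with Benjamini-Hochberg adjustment and a threshold of 0.05, 3 of the 9 genes (Ppp1r2, Arpc5l and Ccnyl1) were called in the ratio change of P1 against FD22, and they were the only probe sets called (0.0138% of 21675). Against FD19, 7 of the 9 genes were called lower, where 0.111% of kept probe sets were. Both counts rest on the ratios used to choose the genes and share the P1 arrays, so they only describe how the 9 stood in the fit. With the lysate as a block, which the design warrants since both RNAs came from the same lysate, 5 of the 9 were called against FD22, Amd1 and Tmem179b being added, among 17 probe sets in all, and 9 of the 9 against FD19, among 226. The errors and calls given for single genes are of the fit without this block, which leaves the pairing out. For the Amd1 ratio change against FD22 the SE was 0.24 in that fit and 0.15 with the block. On leaving out 1 lysate from the fit without the block, the count against FD22 was 0 of 9 without FD19 replicate 2 or 3, FD22 replicate 1 or 2, or P1 replicate 2 or 3. It was 1 without FD19 replicate 1, 2 without P1 replicate 1 and 4 without FD22 replicate 3. Of the 21675 kept probe sets, 1, 2 and 20 were called in these 3 fits, in the same order, and 0 in the others. Against FD19 it was 0 without any FD19 replicate or P1 replicate 2 or 3, 1 without P1 replicate 1, 4 without FD22 replicate 2, 7 without FD22 replicate 1 and 8 without FD22 replicate 3. In the same order, 0, 1, 5, 16 and 97 of the 21675 kept probe sets were called in either direction.

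**Figure D2:**
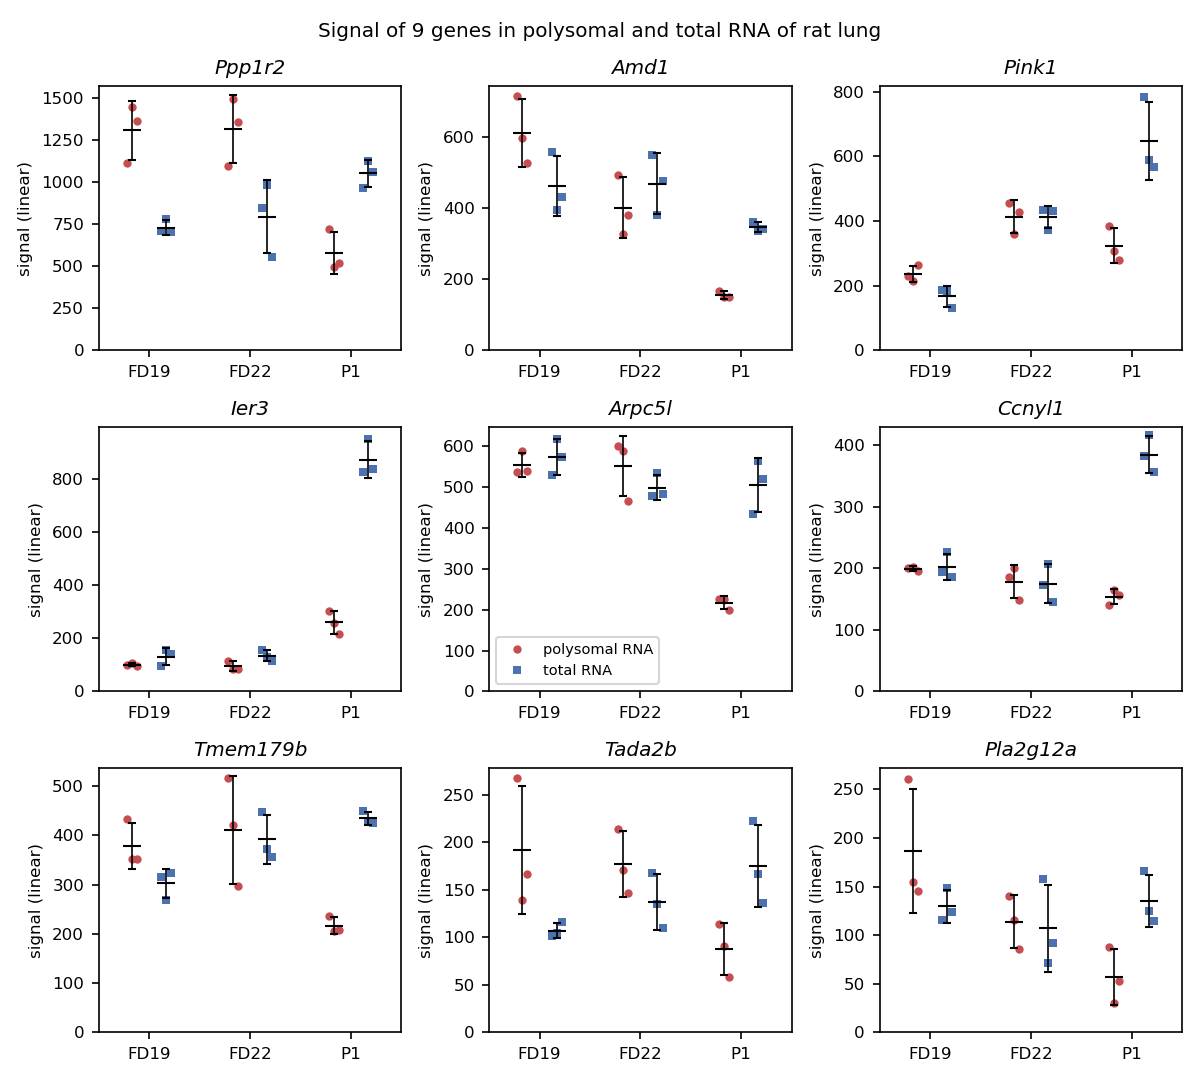
Signal (linear, arbitrary units) of the 9 genes by stage, with polysomal RNA left of total RNA at each stage. Points are arrays, and bars are the mean and SD of 3 arrays; at P1 the polysomal points lie under the total points in all 9 panels.

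In 6 genes the mean polysomal signal was lower at P1 than at FD22, while the mean total signal differed less. Arpc5l, an isoform of a subunit of the Arp2/3 complex that branches actin filaments, was the plainest of them. At FD19 its signal was 537.4, 588.3 and 538.6 in polysomal RNA and 530.6, 618.3 and 573.6 in total RNA. At FD22 it was 600.1, 589.4 and 466.9 in polysomal RNA and 479.4, 533.8 and 483.0 in total RNA. At P1 the polysomal values were 225.1, 227.4 and 199.3 and the total values 433.2, 563.7 and 519.7. The polysomal values at P1 were lower than any fetal value, and the total values overlapped with those of FD22. The log2 change at P1 against FD22 was -1.32 ± 0.13 in polysomal RNA (SE), a signal 2.49-fold lower, and 0.01 ± 0.13 in total RNA. The ratio changed by -1.33 ± 0.19, and by -1.33 without FD22 replicate 2.

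Ppp1r2 encodes protein phosphatase inhibitor 2, which binds the catalytic subunit of protein phosphatase 1. Its brightest probe set read 1110.1, 1444.2 and 1362.4 in polysomal RNA and 708.2, 778.4 and 701.7 in total RNA at FD19. FD22 lysates gave 1096.0, 1492.7 and 1355.9 in polysomal RNA and 848.0, 980.0 and 553.7 in total RNA. P1 lysates gave 719.2, 497.4 and 516.8 in polysomal RNA and 966.7, 1123.6 and 1061.3 in total RNA. Before birth the mRNA was richer in polysomal than in total RNA in every lysate, and after birth it was poorer in every lysate. Polysomal RNA changed by -1.19 ± 0.18 on the log2 scale at P1 against FD22, and total RNA by 0.44 ± 0.18 with arrays that overlapped. The ratio change of -1.63 ± 0.26 ranked 8 from the lowest of all kept probe sets and was -1.70 without FD22 replicate 2.

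Amd1 encodes S-adenosylmethionine decarboxylase, which supplies the aminopropyl groups for spermidine and spermine. In FD19 lungs its signals were 714.8, 597.0 and 525.7 in polysomal RNA and 556.6, 394.9 and 432.6 in total RNA. In FD22 lungs they were 494.4, 327.9 and 382.0 in polysomal RNA and 550.6, 381.7 and 475.1 in total RNA. In P1 lungs they were 168.3, 149.1 and 149.1 in polysomal RNA and 361.9, 335.0 and 342.7 in total RNA. The total arrays at P1 all lay under those of FD22, and its polysomal signal was lower at each later stage. The polysomal change at P1 against FD22 was -1.32 ± 0.17, the total change -0.42 ± 0.17 and the ratio change -0.90 ± 0.24 on the log2 scale, the last also -0.90 without FD22 replicate 2. Its ratio was also lower at FD22 than at FD19 in all 3 lysates, by -0.64 ± 0.24. This difference was not called (limma adjusted p = 0.999), and 7.09% of kept probe sets had all FD22 ratios under all FD19 ratios.

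Tmem179b encodes a transmembrane protein. At FD19 it read 432.2, 352.0 and 352.1 in polysomal RNA and 316.1, 268.5 and 323.4 in total RNA. At FD22 the values were 515.5, 420.7 and 297.6 in polysomal RNA and 448.3, 371.4 and 355.6 in total RNA. After birth they were 236.7, 204.9 and 208.8 in polysomal RNA and 449.1, 428.9 and 425.5 in total RNA. The P1 polysomal arrays lay under all fetal ones, and the P1 total arrays spread little and overlapped with those of FD22. Log2 changes at P1 against FD22 were -0.87 ± 0.17 in polysomal RNA, 0.15 ± 0.17 in total RNA and -1.03 ± 0.24 in the ratio, or -0.96 in the ratio without FD22 replicate 2.

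Tada2b encodes an adaptor subunit of the SAGA histone acetyltransferase complex. The FD19 arrays gave 267.7, 139.7 and 167.1 in polysomal RNA and 101.0, 104.3 and 115.9 in total RNA. The FD22 arrays gave 214.2, 170.7 and 146.3 in polysomal RNA and 167.6, 134.6 and 109.7 in total RNA. The P1 arrays gave 113.7, 90.5 and 58.7 in polysomal RNA and 221.9, 167.1 and 135.9 in total RNA. The 3 arrays of a group differed more for this dimmer probe set, yet within each P1 lysate the polysomal signal was lower than the total. Polysomal RNA changed by -1.0 ± 0.25, total RNA by 0.33 ± 0.25 and the ratio by -1.33 ± 0.36 at P1 against FD22 (log2), the ratio by -1.34 without FD22 replicate 2.

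Pla2g12a encodes a secreted phospholipase A2 of group XIIA. Its signals at FD19 were 260.5, 154.9 and 145.6 in polysomal RNA and 116.1, 148.9 and 124.0 in total RNA. FD22 signals were 140.2, 115.4 and 85.8 in polysomal RNA and 157.7, 71.8 and 91.6 in total RNA. P1 signals were 87.8, 30.5 and 53.1 in polysomal RNA and 165.7, 125.3 and 114.2 in total RNA. Its arrays overlapped between P1 and FD22 in both RNAs, and it had the widest error of the 9. The ratio change was -1.39 ± 0.44 with all lysates, -1.13 when FD22 replicate 2 was left out, and -1.72 when replicate 1 of every stage was. Polysomal RNA differed by -1.01 ± 0.31 and total RNA by 0.38 ± 0.31 (log2).

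Pink1 and Ccnyl1 had more total mRNA at P1 than at FD22, while their polysomal signals averaged lower at P1 with arrays that overlapped. Ccnyl1 encodes a cyclin Y-like protein, of a family that anchors cyclin-dependent kinases at membranes. It had 200.9, 202.6 and 195.7 in polysomal RNA and 194.1, 226.1 and 186.3 in total RNA at FD19. FD22 values were 186.7, 200.3 and 149.0 in polysomal RNA and 173.6, 207.2 and 145.1 in total RNA. P1 values were 141.2, 164.7 and 156.8 in polysomal RNA and 383.2, 416.2 and 356.0 in total RNA. In the fetal lysates the polysomal and total signals of Ccnyl1 were close to equal. At P1 the total arrays were above all fetal ones and the polysomal arrays overlapped with those of FD22. The log2 change was -0.20 ± 0.15 in polysomal RNA, 1.12 ± 0.15 in total RNA (2.18-fold higher) and -1.32 ± 0.21 in the ratio, or -1.36 in the ratio without FD22 replicate 2.

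Pink1 encodes a kinase that marks damaged mitochondria for removal. At FD19 its signal was 228.5, 214.2 and 263.6 in polysomal RNA and 186.5, 183.5 and 130.0 in total RNA. The FD22 signal was 455.8, 358.5 and 426.7 in polysomal RNA and 433.7, 371.6 and 429.8 in total RNA. The P1 signal was 385.4, 307.2 and 279.4 in polysomal RNA and 784.5, 589.8 and 566.0 in total RNA. Total Pink1 mRNA was higher at each later stage without overlap, while polysomal Pink1 mRNA was higher at FD22 than at FD19 and overlapped between P1 and FD22. At FD22 against FD19 the log2 change was 0.80 ± 0.17 in polysomal RNA and 1.29 ± 0.17 in total RNA. At P1 against FD22 it was -0.35 ± 0.17 in polysomal RNA, 0.63 ± 0.17 in total RNA and -0.99 ± 0.24 in the ratio. Without FD22 replicate 2 these were -0.45, 0.56 and -1.01.

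Ier3 is an immediate early response gene, induced within minutes by growth factors and stress, whose product affects cell survival. At FD19 it had 100.2, 105.3 and 94.9 in polysomal RNA and 94.8, 156.6 and 140.4 in total RNA. At FD22 it had 115.8, 82.6 and 84.1 in polysomal RNA and 156.5, 130.8 and 115.2 in total RNA. At P1 it had 301.9, 259.0 and 216.5 in polysomal RNA and 824.5, 950.2 and 837.6 in total RNA. Both RNAs were above every fetal array of their kind, so Ier3 mRNA was more abundant in large polysomes after birth, not less. Polysomal RNA was 2.66-fold higher (log2 1.41 ± 0.19) and total RNA 6.31-fold higher (log2 2.66 ± 0.19), which leaves the ratio lower by a log2 change of -1.24 ± 0.26, or -1.31 without FD22 replicate 2. The polysomal over total ratio of its signals at P1 was 0.366, 0.273 and 0.258 in the 3 lysates, against 0.740, 0.631 and 0.730 at FD22.

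**Figure D3:**
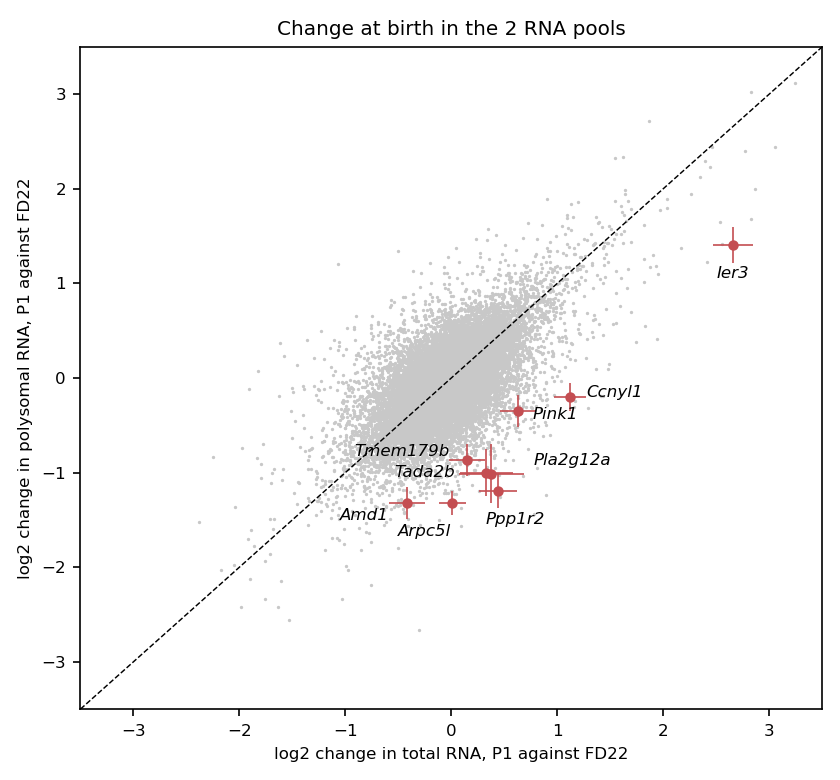
Log2 change at P1 against FD22 in total RNA (x axis) and polysomal RNA (y axis) for 21675 kept probe sets (grey) and the 9 genes (red, bars SE). Points on the dashed line change alike in both RNAs; the 9 genes lie under it, Ier3 far right with 2.66 in total RNA, and Arpc5l straight down with 0.01 in total RNA.

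By limma's adjusted p at P1 against FD22, polysomal RNA was called lower for 5 of the 9 genes (Ppp1r2, Amd1, Arpc5l, Tmem179b and Tada2b) and higher for Ier3, where 4.55% of kept probe sets were called lower and 3.79% higher. Total RNA was called higher for 3 genes (Pink1, Ier3 and Ccnyl1) and lower for none, where 2.21% were called higher and 1.76% lower. For Pla2g12a neither RNA was called. By the arrays alone, all 3 polysomal signals at P1 lay under all 3 at FD22 for the same 5 genes (12.6% of kept probe sets) and above them for Ier3 (10.3%), and the total signals lay above for the same 3 genes (9.41%) and under for Amd1 (11.3%). Both contrasts enter the ratio that chose the genes, so these counts only sort the 9 by which RNA differed. Leaving out 1 lysate at a time gave 4 to 6 lower and 1 higher in polysomal RNA, and 2 to 3 higher in total RNA. Of the 21675 kept probe sets, 576 to 1076 were then called lower and 499 to 811 higher in polysomal RNA. In total RNA 258 to 444 of them were called higher. Pink1 was the gene whose total call (adjusted p = 0.0425) was lost, in 8 of the 9 fits that left out a lysate (adjusted p 0.0536 to 0.177), with 0.147 without FD22 replicate 2; it held without FD19 replicate 3. The polysomal Tada2b call was lost without FD22 replicate 1 or 2 or P1 replicate 2 or 3 (adjusted p 0.0512 to 0.0962). Pla2g12a was called lower in polysomal RNA without FD22 replicate 3 (adjusted p = 0.0488) or P1 replicate 1 (0.018).

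At FD22 against FD19 the ratios differed less: the 9 changes ran from -0.64 for Amd1 to 0.19 for Arpc5l, with a median of -0.28, and 0 of the 9 and 0 of all 21675 kept probe sets were called by limma (0.0%). At an unadjusted p under 0.05, 1 of the 9 passed, as did 781 of the 21675 kept probe sets. The FD22 ratios of 3 genes (Amd1, Pink1 and Tada2b) lay under all FD19 ratios, as did those of 7.09% of kept probe sets. In total RNA 1 gene, Pink1, was called higher, where 8.42% of kept probe sets were. In polysomal RNA Pink1 was called higher and Amd1 lower, where 8.22% and 7.7% were. The Amd1 call was lost without FD19 replicate 1 or 2 or FD22 replicate 2 or 3 (adjusted p 0.0595 to 0.0864). The mean ratio was below 0 on the log2 scale for 3 of the 9 genes at FD19 (Ier3, Arpc5l and Ccnyl1), 2 at FD22 (Amd1 and Ier3) and all 9 at P1, where 55.7%, 57.3% and 57.7% of kept probe sets were, by stage.

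Agreement among probe sets could be examined for 3 genes. The 3 probe sets of Ppp1r2 changed alike, with Pearson r between 0.85 and 0.95 over 18 arrays as a description, and with ratio changes of -1.63 ± 0.26, -1.37 ± 0.27 and -1.32 ± 0.35 at P1 against FD22. By limma's adjusted p the brightest was called in this contrast (0.0416), and the other probe sets were not (0.227 and 0.422). The dimmest of the 3, with a median signal of 83.5, read 53.2, 44.0 and 46.3 in polysomal RNA and 95.7, 81.3 and 89.4 in total RNA at P1. Its P1 ratios also lay under all 6 fetal ratios. Tmem179b did not show such agreement. Its brightest probe set, with a median signal of 354, changed by -1.03 ± 0.24, while a probe set near background, with a median of 35.7, changed by -0.01 ± 0.40, and another, too dim to be kept, by 0.03. For Arpc5l the other probe set had a median signal of 23.8, was not kept, and changed by 0.40 ± 0.80. The Tmem179b and Arpc5l values thus each rest on 1 bright probe set.

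**Figure D4:**
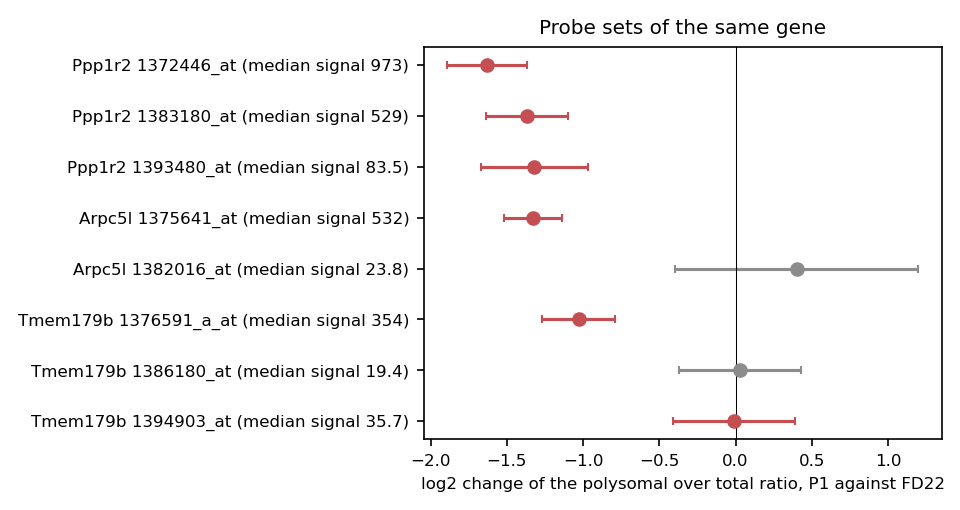
Log2 change of the polysomal over total ratio at P1 against FD22 (x axis, bars SE) for every probe set of the 3 genes with several, kept ones in red and those not kept in grey. The Ppp1r2 probe sets lie together between -1.63 and -1.32, while the dim probe sets of Arpc5l and Tmem179b lie at or above -0.01.

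The rat gene table lists 2 pseudogenes of Ppp1r2, 3 of Amd1 and 4 of Arpc5l, and also a like-named gene, Ppp1r2l1. Signal from near-identical copies in these probe sets is thus uncertain and was not tested. The other 6 genes had no copy listed under their symbol.

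Genes outside the 9 with the most similar course were found by Pearson r, over 9 lysates, with the mean ratio profile of the 9. The 5 closest were Tmem123 (r 0.99), Crebzf (0.98), Ppp2cb (0.98), Tmem9b (0.97) and Rnf115 (0.97), where the 95th percentile over 11581 genes was 0.75. Crebzf, a bZIP protein, changed by -1.26 ± 0.23 in the ratio at P1 against FD22, with -1.56 ± 0.16 in polysomal RNA and -0.29 ± 0.16 in total RNA. Tmem123 changed by -1.17 ± 0.23 in the ratio, with -0.56 ± 0.17 in polysomal RNA and 0.61 ± 0.17 in total RNA. Ppp2cb, a catalytic subunit of protein phosphatase 2A, changed by -0.68 ± 0.15 in the ratio. Of the 5, none was called by limma in the ratio change against FD22, and Tmem123, Crebzf and Ppp2cb were called lower against FD19 (adjusted p = 0.0459 each). The 5 were found by the same lysate ratios, so their ratio changes and calls are a description and no independent test. Each of the 9 genes followed the mean of the other 8 with r between 0.89 and 0.97, a likeness that the choice of genes builds in.

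The ratio changes at P1 against FD22 of genes related to the 9 had medians between -0.08 and 0.09 in 8 lists, drawn up with earlier results of these data known and without the 9 themselves. No list gene was called in the ratio change against FD22, where the 3 probe sets called (0.0138%) all belong to the 9, so that count says nothing of the lists. Against FD19, 0 list genes were called by limma in the fit without the lysate as a block, where 0.111% of kept probe sets were called lower. That fit leaves the pairing out, and the list calls with the block are not given here. Of the 25 other protein phosphatase 1 subunits kept, 2 passed an unadjusted p under 0.05, as did 943 of the 21675 kept probe sets. The median ratio change of the 25 subunits was 0.00, against 0.02 over all genes. The median was -0.07 for 20 genes of polyamine and methionine salvage metabolism (2 at an unadjusted p under 0.05), -0.05 for 18 genes of mitophagy (1) and -0.02 for 17 genes of the Arp2/3 complex and its activators (0). It was -0.08 for 6 cyclin Y relatives and kinases (0), 0.01 for 19 SAGA and ATAC subunits (0) and 0.06 for 7 secreted phospholipase A2 genes (0). Against FD19 the medians of these 7 lists lay between -0.13 and 0.06. At an unadjusted p under 0.05 there were 6 polyamine genes, 3 phospholipase A2 genes and 2 Arp2/3 genes. There were also 1 phosphatase subunit, 1 mitophagy gene and 0 in the other lists. In this contrast 2163 of the 21675 kept probe sets passed. The genes went both ways: the polyamine genes Sms, Oaz2 and Mat2a, Pla2g2d and the Arp2/3 gene Actr2 were higher, the others lower. Single relatives were as low as the 9 in that contrast. The phospholipase A2 genes Pla2g1b and Pla2g2a, named after their values were seen, changed by -1.98 ± 0.51 (limma adjusted p = 0.152) and -1.53 ± 0.58 (adjusted p = 0.351) against FD19, but by 0.04 ± 0.51 and -0.38 ± 0.58 against FD22.

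Single partners did change in amount at P1 against FD22. Among the phosphatase subunits, Ppp1r3b, which targets the phosphatase to glycogen, fell in polysomal RNA by a log2 change of -1.49 ± 0.17 (limma adjusted p = 2.91e-05) and in total RNA by -1.72 ± 0.17 (adjusted p = 9.57e-06). Ppp1r15a, the stress-induced subunit that reverses eIF2 alpha phosphorylation, rose by 0.75 ± 0.16 in polysomal RNA (adjusted p = 0.0069) and by 0.65 ± 0.16 in total RNA (adjusted p = 0.0265). Ppp1r14b, an inhibitor of the phosphatase, fell in polysomal RNA by -0.93 ± 0.21 (adjusted p = 0.00921), with 0.01 ± 0.21 in total RNA. Its ratio change of -0.94 ± 0.30 was not called (adjusted p = 0.617). The total Ppp1r15a call was lost without FD22 replicate 2 (adjusted p = 0.144) and without P1 replicate 1, 2 or 3 (0.136, 0.062 and 0.0598). The Ppp1r14b call was lost without FD22 replicate 1 (0.0568) and without P1 replicate 3 (0.0552).

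In polyamine metabolism 3 of 20 genes rose and 1 fell in each RNA, where 3.79% and 4.55% of kept probe sets did in polysomal RNA and 2.21% and 1.76% in total RNA. Azin1, which protects ornithine decarboxylase from its antizyme, rose by 0.72 ± 0.12 in polysomal RNA (limma adjusted p = 0.00134) and by 0.82 ± 0.12 in total RNA (adjusted p = 0.000687). Odc1, ornithine decarboxylase itself, rose in total RNA by 0.86 ± 0.19 (adjusted p = 0.0136) and differed by 0.59 ± 0.19 in polysomal RNA (adjusted p = 0.0606). Sat1, which acetylates spermidine and spermine for breakdown and export and is named after its values were seen, rose by 0.90 ± 0.24 in polysomal RNA (adjusted p = 0.0234) and 1.01 ± 0.24 in total RNA (adjusted p = 0.0188). Both Sat1 calls were lost without FD22 replicate 2 (0.0865 and 0.0777) and without P1 replicate 1 or 3, and the polysomal call also without FD22 replicate 3 or P1 replicate 2. Of the methionine salvage enzymes, Mri1 fell in total RNA by -1.07 ± 0.18 (adjusted p = 0.00184) and Adi1 in polysomal RNA by -0.81 ± 0.16 (adjusted p = 0.00335). Odc1 makes putrescine, to which spermidine synthase adds the group that the Amd1 product supplies. In polysomal RNA Amd1 was called lower at P1, Azin1, Sat1 and Mat2a (0.61 ± 0.14, limma adjusted p = 0.0115) higher, and Odc1 was not called. In total RNA Azin1, Odc1 and Sat1 were called higher. Neither Amd1 nor Sms (-0.75 ± 0.24, limma adjusted p = 0.0896) was called in total RNA. Mat2a and Sms are named after their values were seen, and a shared course of the pathway was not tested. The Odc1 call was lost without FD22 replicate 2 (adjusted p = 0.0564) and without P1 replicate 1 (0.0863).

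In the other lists few genes passed. Parl, the protease that cleaves Pink1 in the mitochondrial inner membrane, rose by 0.65 ± 0.13 in polysomal RNA (limma adjusted p = 0.00593) and 0.62 ± 0.13 in total RNA (adjusted p = 0.0122), the single mitophagy gene called; the total call was lost without P1 replicate 1 (adjusted p = 0.0857). Wasf1, an activator of Arp2/3, fell by -0.73 ± 0.20 in total RNA (adjusted p = 0.0457), a call that held in 3 of 17 alternative settings and was lost on leaving out any lysate but P1 replicate 2. The SAGA and ATAC subunits Mbip and Taf9 rose in polysomal RNA by 0.60 ± 0.16 (adjusted p = 0.0225) and 0.46 ± 0.12 (adjusted p = 0.0235). The Mbip call was lost without P1 replicate 1 (0.0821) or 3 (0.0884), and the Taf9 call without FD22 replicate 3 (0.0901) or P1 replicate 2 (0.117). No cyclin Y relative passed, with Cdk17 at 0.32 ± 0.16 in polysomal RNA and 0.10 ± 0.16 in total RNA, and no phospholipase A2 gene passed, with Pla2g3 at 0.16 ± 0.18 and -0.30 ± 0.18.

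Ier3 could be set beside 42 other immediate early and stress-induced genes. Of these, 22 rose and 2 fell in polysomal RNA, and 13 rose and 1 fell in total RNA, by limma's adjusted p at P1 against FD22. Over all kept probe sets 3.79% rose and 4.55% fell in polysomal RNA, and 2.21% and 1.76% in total RNA. The list holds Ppp1r15a as well. Without FD22 replicate 2, 14 rose in polysomal RNA and 10 in total RNA. Without P1 replicate 3, 15 and 8 rose, and over all 9 lysates left out in turn 14 to 22 and 8 to 14 did. Their median log2 change was 0.52 in polysomal RNA and 0.34 in total RNA, against -0.03 and -0.05 over all genes. Atf3, a stress-induced transcription factor, rose by 2.40 ± 0.26 in polysomal RNA (adjusted p = 1.8e-05) and 2.77 ± 0.26 in total RNA (adjusted p = 6.01e-06). Fos, a subunit of the AP-1 transcription factor, rose by 1.62 ± 0.24 (adjusted p = 0.000407) and 1.82 ± 0.24 (adjusted p = 0.000209) in the same order. The matrix-associated factor Ccn2 and the transcription factor Egr1 rose as well, by 1.52 ± 0.14 and 1.31 ± 0.19 in polysomal RNA and by 1.61 ± 0.14 and 1.15 ± 0.19 in total RNA.

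The ratio changes of the 42 genes ran from -0.53 to 0.84 with a median of 0.09. The value of -1.24 for Ier3 thus lay outside their range. Of the 42, 1 passed an unadjusted p under 0.05, as did 943 of the 21675 kept probe sets. Among the 22 called higher in polysomal RNA, the lowest ratio change was -0.44, for Maff. Ier3 was chosen for its low ratio, so this distance is a description and was not tested.

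**Figure D5:**
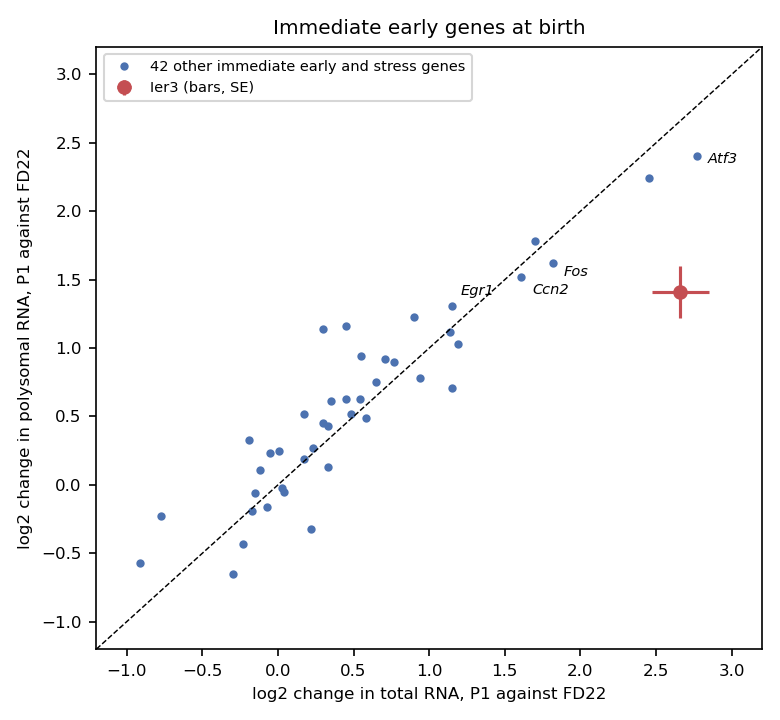
Log2 change at P1 against FD22 in total RNA (x axis) and polysomal RNA (y axis) for 42 immediate early and stress-induced genes (blue) and Ier3 (red, bars SE). Atf3 and Fos lie near the dashed line of equal change, and Ier3 lies under it with 1.41 in polysomal RNA and 2.66 in total RNA.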

How the data were processed

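Per the labels' protocols, biotin-labelled RNA of each lysate was hybridised to Affymetrix arrays, and per the submitters' processing notes the authors used GCOS 1.4. The deposited values are linear intensity values (signal) of each probe set, as the authors' software gave them; the trimmed mean (2% off each end) was 150 on all 18 arrays, and the signal algorithm is not given in the sources used here. Here log2(signal + 5.5), the 10th percentile of all signals, was tested for the probe sets above 40.8 on at least 3 arrays. limma 3.58.1 (R 4.3.3; lmFit, eBayes with a variance trend) fitted 6 group means to 18 arrays (12 residual degrees of freedom), with Benjamini-Hochberg adjustment over 21675 probe sets; fold changes understate those of dim probe sets. The fit was checked on simulated data.

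Genes were named from the platform annotation: 20832 probe sets had 1 gene symbol, 436 several and 9780 none. The brightest kept probe set stood for a gene. Of each list, up to 4 genes passing the ratio change, or else passing in either RNA, are named, smallest p first, or 2 where none passed. The members and lists were chosen with earlier results of these data known. Replicates are separate litters. Total and polysomal arrays share a lysate by design: their deviations from group means correlated in 9 of 9 lysates (r 0.186 to 0.488). Alternatives were other constants, filters and scalings, no variance trend, the lysate as a block, and leaving out each lysate.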

Additional observations from a re-analysis of the deposited data

Results flagged for a closer look

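Some ratio changes stood out because the polysomal and total RNAs of the same gene changed differently between stages by limma's test of that difference, the values being log2 changes of the polysomal over total ratio. The genes were chosen for this fall, so none of it is independent evidence. At P1 against FD22 these were Ppp1r2 (-1.63), Arpc5l (-1.33) and Ccnyl1 (-1.32). At P1 against FD19 they were Ppp1r2 (-1.70), Amd1 (-1.54), Pink1 (-1.48), Ier3 (-1.40), Tmem179b (-1.30), Ccnyl1 (-1.28) and Arpc5l (-1.14). The P1 arrays are shared by both sets of values.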

How the results depend on the processing

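The ratio change of each of the 9 genes at P1 against FD22 stayed negative in all 18 alternatives, while the calls did not all hold. The counts below are probe sets called by limma. For the ratio change of P1 against FD22, 3 were called: 1 without the filter, 1 with median centring, 0 without the variance trend and 17 with the lysate as a block. Leaving out 1 lysate gave 0 to 20: 20 without FD22 replicate 3, 1 without FD19 replicate 1, and 0 without FD19 replicate 2 or 3, FD22 replicate 1 or 2, or P1 replicate 2 or 3. For P1 against FD19, 25 were called: 7 without the filter, 41 with the 60th percentile filter, 0 with median centring, 0 without the variance trend, 226 with the lysate as a block and 0 to 97 without 1 lysate, the 97 without FD22 replicate 3, 16 without FD22 replicate 1, 5 without FD22 replicate 2, 1 without P1 replicate 1 and 0 without any other. For FD22 against FD19, 0 were called and 1 with quantile normalization. Leaving out 1 lysate gave 447 to 767 in total RNA and 1075 to 1887 in polysomal RNA at P1 against FD22, against 861 and 1807 (lowest without P1 replicate 3 and without FD22 replicate 2), 2359 to 3580 in total RNA at FD22 against FD19, against 3520, and 1996 to 3549 in polysomal RNA at FD22 against FD19, against 3451 (lowest without FD19 replicate 2). The arrays numbered 2 and 3 alone, chosen after seeing the data, gave 0 in both ratio changes at P1, 394 in total and 812 in polysomal RNA at P1 against FD22, and 2330 in total and 2076 in polysomal RNA at FD22 against FD19. Fewer arrays are tested there; the cause of the other shifts was not tested. Median centring turned the total calls at P1 against FD22 to 626 higher and 210 lower, against 479 and 382, and the polysomal calls to 951 and 631, against 821 and 986. It turned those of total RNA at FD22 against FD19 to 1398 higher and 2050 lower, against 1824 and 1696. Among dim probe sets, the Arpc5l value was 0.40 ± 0.80 (not kept). The Tmem179b values were 0.03 ± 0.40 (not kept) and -0.01 ± 0.40 (kept). With these errors the signs are undetermined, and signal over background limits all of these values.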
